A study of Mus musculus with 74 samples.

Results

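Mouse embryonic fibroblasts (MEFs) that had received Klf4, c-Myc and the engineered Sox17 variant eSox17FNV were compared after and during doxycycline (Dox) induction in neural stem cell (NSC) medium. The comparison was chosen by culture label. It sets 4 libraries after Dox (days 20 and 24, 2 each) against 4 libraries on Dox (days 12 and 16, 2 each), which makes 8 of the 74 labelled samples of the series. All 8 came from Nanog-CreER/Rosa26-tdTomato/Sox2-GFP MEFs with M2rtTA and Dox-inducible lentiviruses, so the cells after Dox still carried the transgenes. They were held for 8 days in N2B27 medium with 1 µg/mL Dox, then moved to NSC medium with Dox, bFGF and EGF (10 ng/mL of each), and lost Dox after day 16. The cultures were sampled in bulk and are labelled as reprogramming intermediates, a label that names no cell type to check against markers. Cells of the same origin split at day 8 to LIF/2i, a pluripotency medium with LIF and inhibitors of GSK3 and MEK, gave 8 further libraries at the same days. Because both later days were without Dox and both earlier days with it, Dox and day cannot be told apart.

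Inducible reprogramming relies on delivered factors to start a new expression program, and the inducer is later removed to ask which programs continue without them. SOX17 is an endoderm factor, and its engineered form was made to act in reprogramming in place of SOX2. KLF4 is also a regulator of epithelial differentiation, and c-MYC promotes growth and division. OTX2 is a transcription factor of primed pluripotent cells and of the anterior neural plate. LEFTY1 is a secreted inhibitor of NODAL, a ligand of the TGF-beta family that acts through a coreceptor and SMAD proteins in pluripotent cells and the early embryo.

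Levels are the authors' normalized tag counts, called values here. Differences are of log2(value + 2), after minus on Dox, with their standard error (SE). A gene was called, and is said to have risen or fallen, at an adjusted p below 0.05 and a difference of at least 1 in limma, with Benjamini-Hochberg adjustment over the 20468 genes tested. Called genes numbered 4200, which is 20.5% of those tested. Of these 2291 (11.2% of those tested) were higher after Dox and 1909 (9.33%) lower, and the median difference over all genes was -0.06. At 7509 genes (36.7%) the libraries after Dox did not overlap those on Dox, with 3072 (15.0%) higher after Dox and 4437 (21.7%) lower. Each of the 8 libraries correlated best with its own replicate (r from 0.940 to 0.950 on the log2 scale). Read depth is unknown. The labels do not say that replicates were separate cultures, so the p-values measure only the spread between replicate libraries. That spread was taken over all 26 libraries in the 13 groups fitted. Differences between days on the same side of Dox did not enter it. With the 8 libraries fitted as 2 groups and the days pooled, 3090 genes were called.

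The delivered genes were all lower after Dox. Sox17 had values of 373 and 451 at day 20 and 177 and 319 at day 24, against 11250 and 11250 at day 12 and 3064 and 4971 at day 16. No library after Dox came near a library on Dox, and Sox17 fell by 4.40 on the log2 scale (SE 0.29, limma adjusted p = 1.6e-08). Sox17 was listed at 0 in both MEF libraries and in both libraries of primary NSCs. Klf4 had 1222 and 1311 at day 20 and 217 and 293 at day 24, against 4025 and 4205 at day 12 and 1389 and 2465 at day 16. The groups did not overlap (difference -2.28, SE 0.20, limma adjusted p = 2.9e-07), although day 20 lay just under day 16. Myc had 824 and 707 at day 20 and 304 and 439 at day 24, against 3524 and 3594 at day 12 and 2080 and 2655 at day 16, again without overlap (difference -2.45, SE 0.20, limma adjusted p = 1.7e-07). Sox17 and Klf4 also fell while Dox was present, with differences of -1.53 and -1.15 between day 16 and day 12. Transcripts of the viruses and of the cells' own genes are not separated in these gene-level values.

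Otx2 was higher in each library after Dox than in each library on Dox. It had 113 and 154 at day 20 and 209 and 429 at day 24, against 75 and 40 at day 12 and 21 and 21 at day 16. The difference was 2.47 (SE 0.53, limma adjusted p = 0.0011), and it stayed between 2.22 and 2.73 when any 1 of the 8 libraries was left out. MEFs and primary NSCs had an Otx2 value of 1 in each library. Lefty1 took another course, with 244 and 590 at day 20 and 222 and 1120 at day 24, against 863 and 1029 at day 12 and 31 and 56 at day 16. It was high at day 12, low at day 16 and spread widely after Dox, so the groups overlapped. The averaged difference was called (1.11, SE 0.40, limma adjusted p = 0.028). It rested on day 16, without which it was -1.11. The call was also lost without day 24 (0.91), with the 8 libraries fitted alone, and with the days pooled into 2 groups. It was lost as well without EFD12 replicate 1 (1.04), EFD16 replicate 1 (0.90), EFD20 replicate 2 (0.79) or EFD24 replicate 2 (0.52), where EFD stands for NSC medium and the number for the day. By single steps Lefty1 differed by -4.43 between day 16 and day 12 and by 3.12 between day 20 and day 16, both called.

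**Figure D1:**
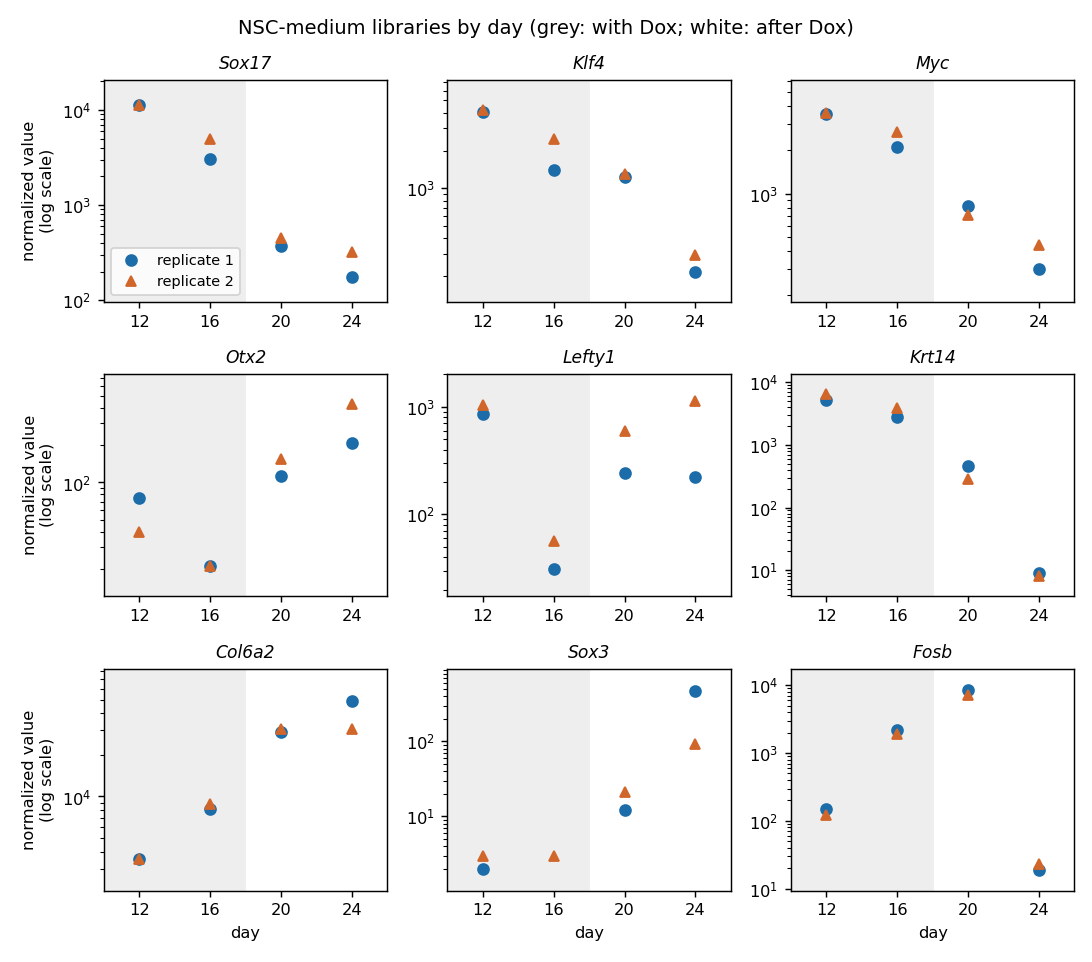
Values of 9 genes (log scale) in the NSC-medium libraries by day, 1 symbol per library, with grey shading for days with Dox. Sox17, Klf4, Myc and Krt14 are lower on the white side and Otx2, Col6a2 and Sox3 higher; Lefty1 is lowest at day 16 (31 and 56) and Fosb highest at day 20 (8617 and 7161). Replicate 1 of Sox3 at day 16 is listed at 0 and is not drawn.

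By list median, keratinocyte genes fell further than any other list described here. Of 12 markers 10 were lower after Dox and none was higher, against 9.33% lower among all genes tested, and the median difference of the list was -3.24. Krt14, a keratin of basal keratinocytes, had 458 and 289 at day 20 and 9 and 8 at day 24, against 5248 and 6459 at day 12 and 2836 and 3943 at day 16. It was already lower at day 20 and close to absent at day 24 (difference -6.16, SE 0.26, limma adjusted p = 1.8e-10). Krt17 and Krt6a, keratins of activated epidermis, had differences of -6.52 and -5.63. Sprr1a, a precursor of the cornified envelope, had 230 and 63 at day 20 and 6 and 10 at day 24, against 1195 and 1028 at day 12 and 1684 and 1667 at day 16 (difference -5.30, limma adjusted p = 1.4e-08). The members that were not called were Trp63, the transcription factor of basal epithelium (0.66), and Krt15 (-0.61). Summed over the list, values ran from 246 to 2215 after Dox and from 12549 to 23522 on Dox. In bulk RNA, fewer cells of a type and less RNA per cell cannot be told apart. MEFs had Krt14 values of 18 and 11.

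Several keratinocyte genes outside the list were among the largest falls by the naming rule, chosen here after their values were seen from a set that also held Khdc1c (-6.92) and Cldn34b1 (-6.90). Slurp1, a secreted peptide of keratinocytes, had 4 and 4 at day 20 and 0 and 0 at day 24, against 2856 and 3079 at day 12 and 1525 and 1333 at day 16. Nccrp1, a gene of squamous epithelium, had 16 and 14 at day 20 and 0 and 0 at day 24, against 1984 and 2343 at day 12 and 1548 and 1492 at day 16. Krt16, another keratin of activated epidermis, had 26 and 22 at day 20 and 0 and 0 at day 24, against 2179 and 2713 at day 12 and 1425 and 1425 at day 16. In each of these the 2 libraries of day 24 were listed at 0, and the differences were -9.21, -8.28 and -8.02. Asprv1, an epidermal protease that processes filaggrin, fell by 7.07. Alox12b, a lipoxygenase of the skin barrier, and Lgals7, a galectin of stratified epithelia, had differences of -6.19 and -6.18.

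Stretches of 250 bases before annotated starts are shown for Sprr1a and Krt14 (keratinocyte genes lower after Dox), Fos (peak at day 20) and Otx2. They are RefSeq's on GRCm38.p6, 5′ to 3′ on the strand of the gene, with capitals at matches on either strand to the AP-1 motif TGANTCA, the TATA box with the letters TATAAA, or the cAMP response element, spelled TGACGTCA. No match to one motif overlapped a match to another.
Sprr1a, chr3:92485882-92486131, minus strand: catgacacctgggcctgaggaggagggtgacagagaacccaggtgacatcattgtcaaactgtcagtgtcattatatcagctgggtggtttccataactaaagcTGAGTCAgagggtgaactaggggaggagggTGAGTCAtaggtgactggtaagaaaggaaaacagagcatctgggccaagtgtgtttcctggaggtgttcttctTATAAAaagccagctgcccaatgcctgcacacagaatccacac
Krt14, chr11:100206031-100206280, minus strand: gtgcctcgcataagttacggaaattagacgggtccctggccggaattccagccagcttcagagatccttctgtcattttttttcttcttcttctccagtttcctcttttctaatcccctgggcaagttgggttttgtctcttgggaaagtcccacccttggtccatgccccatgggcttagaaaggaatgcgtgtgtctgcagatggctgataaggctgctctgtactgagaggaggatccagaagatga
Fos, chr12:85473640-85473889, plus strand: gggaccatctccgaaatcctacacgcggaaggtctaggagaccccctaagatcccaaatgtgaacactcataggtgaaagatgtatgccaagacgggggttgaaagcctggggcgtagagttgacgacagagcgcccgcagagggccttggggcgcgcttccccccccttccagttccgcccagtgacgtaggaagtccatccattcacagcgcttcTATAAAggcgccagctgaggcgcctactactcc
Otx2, first of 4 annotated starts, chr14:48667645-48667894, minus strand: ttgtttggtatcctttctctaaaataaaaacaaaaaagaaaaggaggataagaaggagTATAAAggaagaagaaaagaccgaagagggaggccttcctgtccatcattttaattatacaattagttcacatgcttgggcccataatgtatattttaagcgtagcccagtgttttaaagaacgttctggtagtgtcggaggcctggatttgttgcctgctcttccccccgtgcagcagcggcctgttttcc
Sprr1a holds 2 matches to the AP-1 motif and a TATA box that lies from 43 to 38 bases before the start. Fos holds a TATA box from 33 to 28 bases before its start, Otx2 holds it from 192 to 187 bases before, and Krt14 holds none of the motifs. Over 27025 promoters of this length, 6.87% held the AP-1 motif, 13.0% the TATA box and 1.62% the cAMP response element. Promoters were at hand for 7 of the keratinocyte genes that fell, of which 3 held the AP-1 motif, and for 12 of the epithelial genes that fell, of which 1 did. In all 327 of the 466 list genes in the value table had one.

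Epithelial genes beyond the epidermis fell too: 16 of 21 markers were lower after Dox, none was higher, and the list median was -2.06. The share lower among all genes tested was 9.33%. St14, which encodes the membrane protease matriptase, had 436 and 355 at day 20 and 44 and 124 at day 24, against 1402 and 1565 at day 12 and 1613 and 1851 at day 16 (difference -3.21, limma adjusted p = 5.3e-07). Ovol1, an epithelial transcription factor, and Crb3, an apical polarity gene, fell by 3.21 and 3.19, and Rab25, a small GTPase of epithelia, fell by 2.95. Cdh1, the E-cadherin gene, was not called (-0.50, SE 0.67). It had 592 and 863 at day 20 and 425 and 868 at day 24, against 903 and 939 at day 12 and 756 and 1170 at day 16, and its groups overlapped. Krt18 and Ocln were not called either (-0.66 and -0.66). With any 1 library left out, the epithelial count stayed between 14 and 16 and the keratinocyte count between 10 and 11.

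Of 12 endothelial markers 4 were lower and none was higher, against 9.33% lower among all genes tested. The count of lower genes was between 3 and 7 with any 1 library left out and highest without EFD24 replicate 2. Tie1, an endothelial receptor, had 35 and 22 at day 20 and 5 and 18 at day 24, against 488 and 485 at day 12 and 178 and 235 at day 16 (difference -4.08, limma adjusted p = 4.1e-07). Cldn5, an endothelial tight junction gene, was listed at 0 in each library after Dox, against 31 and 21 at day 12 and 6 and 7 at day 16. Tek and Kdr, receptors for angiopoietins and VEGF, fell by 1.70 and 1.33, while Flt1 was not called (-0.04). Among 9 trophoblast genes 3 were lower and 1 higher. The higher one, Hand1, was not called without any 1 of EFD12, EFD16, EFD20 and EFD24 replicate 2. Tpbpa, a trophoblast gene, had 494 and 577 at day 20 and 451 and 419 at day 24, against 4859 and 2957 at day 12 and 713 and 806 at day 16, and Gata2, a transcription factor of trophoblast and blood, fell by 1.37. Neither was called without day 12 (-0.65 and -0.75), when no trophoblast gene was lower; with the days pooled 1 was. Of the endothelial genes 7 were lower without day 12 and 8 without day 20.

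**Figure D2:**
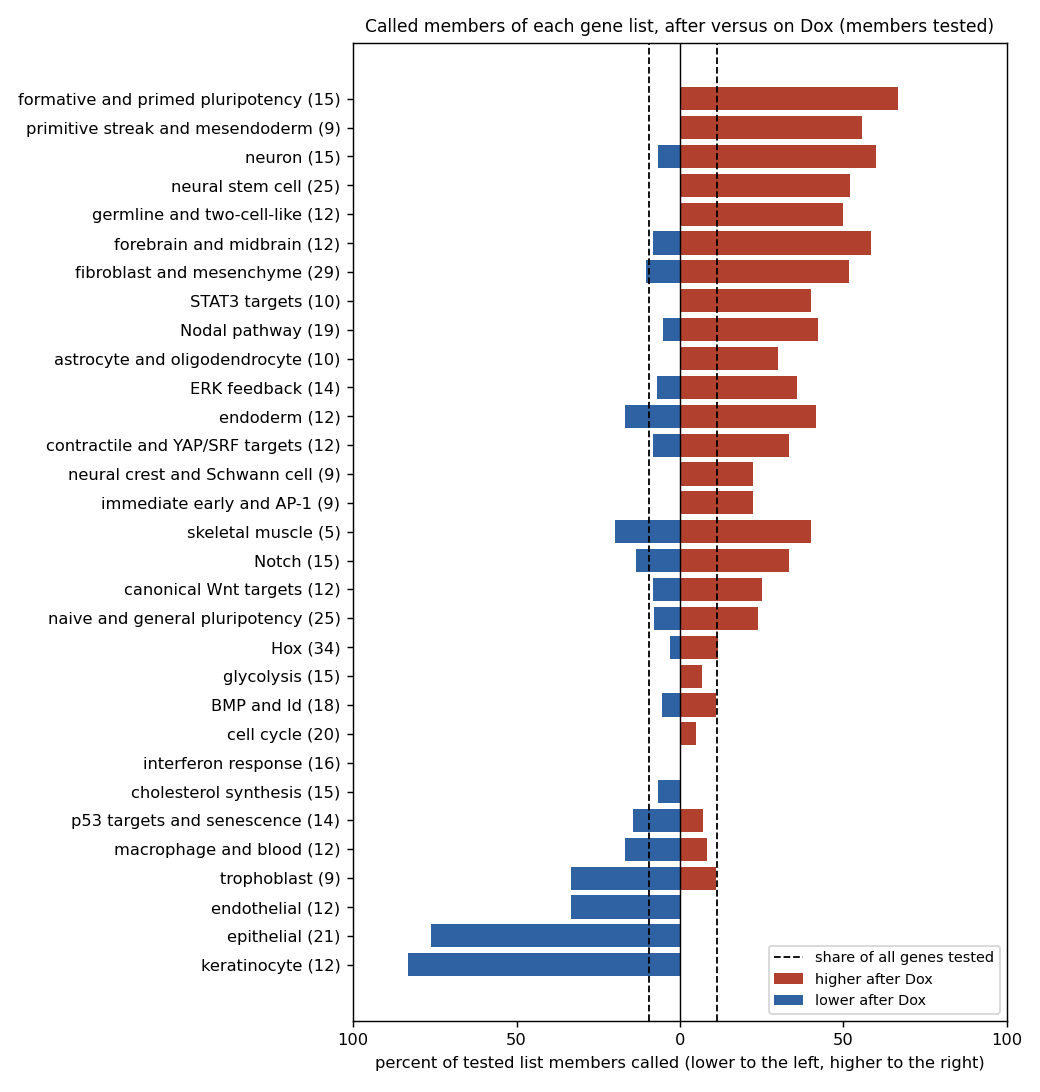
Percent of the tested members of each gene list (number in brackets) called higher (red, right) or lower (blue, left) after Dox, with the 3 delivered factors not drawn. Dashed lines mark all genes tested, 11.2% higher and 9.33% lower. Of the bars drawn, keratinocyte and epithelial genes, 10 of 12 and 16 of 21, reach furthest left, and the formative and primed pluripotency bar, 10 of 15, furthest right.

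Of 29 fibroblast and mesenchymal genes 15 were higher after Dox and 3 lower, with a list median of 1.58. The shares among all genes tested were 11.2% higher and 9.33% lower. Col5a2, a fibrillar collagen gene, had 39810 and 39810 at day 20 and 49062 and 39810 at day 24, against 3944 and 4074 at day 12 and 11250 and 12186 at day 16. The groups were far apart (difference 2.61, SE 0.10, limma adjusted p = 6.5e-11). The number 39810 recurs across the libraries after Dox, and the normalization behind such repeats is not given in the sources used here. Fold sizes and SEs of the highest genes depend on it. Col6a1 and Col6a2, which encode chains of collagen VI, rose by 2.81 and 2.64. Col3a1 stood at 87546 in each library after Dox, against 12178 and 12178 at day 12 and 15437 and 21964 at day 16. That number is the highest of every column in the table, so a larger one could not be written. S100a4, a calcium-binding protein gene of motile fibroblasts, was an exception, with 888 and 527 at day 20 and 125 and 288 at day 24, against 6459 and 6727 at day 12 and 1928 and 1108 at day 16 (difference -3.10, limma adjusted p = 4.1e-07). Twist2, a mesenchymal transcription factor, fell by 2.09. Thy1, a surface glycoprotein gene, fell by 1.09, a call that held only without EFD20 replicate 1 or EFD24 replicate 2 when single libraries were left out and that was -0.66 without EFD24 replicate 1. Without day 24, or with the days pooled into 2 groups, 1 gene of the list was lower, and without day 24 Twist2 was not called (-0.82). Sparc and Vim were not called (0.15 and -0.13).

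Matrix genes outside the list were among the largest rises, once genes whose replicates split between near 0 and well above it were set aside (last paragraph). Cilp, a cartilage matrix gene, had 251 and 160 at day 20 and 1072 and 488 at day 24, against 0 and 0 at day 12 and 3 and 1 at day 16 (difference 7.11, limma adjusted p = 8.8e-10). Thbs4, a thrombospondin of tendon and muscle, had 2234 and 1602 at day 20 and 1942 and 1304 at day 24, against 21 and 14 at day 12 and 59 and 70 at day 16 (difference 5.61). Fmod, which encodes the collagen-binding proteoglycan fibromodulin, rose by 6.41, and the collagen genes Col15a1, Col6a6 and Col8a2 rose by 5.53, 5.19 and 4.54. Plagl1, an imprinted zinc finger gene, had 2979 and 5898 at day 20 and 15437 and 8617 at day 24, against 107 and 109 at day 12 and 72 and 151 at day 16, a difference of 6.01. Gfra1, a coreceptor for GDNF, rose by 4.50.

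Genes of formative and primed pluripotency were higher after Dox for 10 of 15 and lower for none (list median 1.86). Among all genes tested 11.2% were higher and 9.33% lower. Of the list, 2 genes were lower without EFD24 replicate 2 or without day 16, and 1 without day 20 or day 24. Fgf5, a growth factor of the postimplantation epiblast, had 41 and 88 at day 20 and 74 and 260 at day 24, against 15 and 14 at day 12 and 4 and 6 at day 16 (difference 3.13, limma adjusted p = 7.2e-05). Zic2, a transcription factor of epiblast and neural plate, had 34 and 44 at day 20 and 304 and 303 at day 24, against 8 and 9 at day 12 and 7 and 16 at day 16 (difference 3.27, limma adjusted p = 5.5e-07). Its day 24 libraries stood far above those of day 20. Lin28a, which blocks maturation of let-7, had 87 and 339 at day 20 and 962 and 1239 at day 24, against 76 and 88 at day 12 and 12 and 19 at day 16. Its replicate 1 of day 20 lay at the level of day 12, and the difference was 3.53. Utf1 and Cldn6 were not called (-0.68 and -0.91), and without EFD24 replicate 2 they were called lower at -1.20 and -1.29.

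Naive and general pluripotency genes showed no common direction: 6 of 25 were higher, 2 lower and 17 not called, with a list median of 0.13. Among all genes tested 11.2% were higher and 9.33% lower, and the 2 lower genes lay near the second share. Sox2 had 244 and 350 at day 20 and 495 and 299 at day 24, against 172 and 179 at day 12 and 89 and 99 at day 16 (difference 1.37, limma adjusted p = 0.007), a call lost without day 16 (0.93) or day 24 (1.17). Primary NSCs had Sox2 values of 3043 and 3389. Klf2, a naive pluripotency factor, had 605 and 711 at day 20 and 70 and 105 at day 24, against 108 and 95 at day 12 and 41 and 46 at day 16, with its peak at day 20 and overlapping groups (difference 1.81, and 0.36 without day 20). Tbx3 rose by 1.42. Pou5f1, the gene of OCT4, had 1195 and 1892 at day 20 and 618 and 2070 at day 24, against 4505 and 4603 at day 12 and 1488 and 1700 at day 16 and was called lower (-1.04, limma adjusted p = 0.012). That call was lost without EFD16 replicate 2, EFD20 replicate 1 (-0.88) or EFD24 replicate 1 (-0.61), and without day 12 (-0.29) or day 24 (-0.84). Tdh, the threonine dehydrogenase of mouse pluripotent cells, fell by 2.12, but only day 12 stood high, with 1014 and 948, and without it the difference was -0.16. The counts depended on the days: without day 16 the list had 3 higher and 6 lower, and without day 12 it had 10 higher and 0 lower. Without day 20 it had 4 higher and 6 lower, and without day 24 it had 5 higher and 1 lower. Without EFD24 replicate 2 it had 4 higher and 5 lower, and without EFD16 replicate 2, EFD20 replicate 1 or EFD24 replicate 1 it had 1 lower. With the days pooled it had 3 higher and 0 lower.

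In the Nodal pathway 8 of 19 genes were higher after Dox and 1 was lower, against 11.2% and 9.33% of all genes tested. The higher genes numbered 5 without EFD16 replicate 1, without day 24 or with the 8 libraries fitted alone, and 4 with the days pooled. The ligand gene Nodal, named after its values were seen, had 39 and 69 at day 20 and 17 and 66 at day 24, against 44 and 41 at day 12 and 4 and 8 at day 16 (difference 1.25, limma adjusted p = 0.0035). The Nodal groups overlapped: day 12 lay within the range after Dox, and only day 16 lay below it. Tdgf1, the gene of the coreceptor Cripto, had 754 and 1307 at day 20 and 398 and 2200 at day 24, against 750 and 740 at day 12 and 173 and 184 at day 16 and was not called (1.40, SE 0.91). Of the receptors Acvr2b rose by 1.86, with 202 and 119 at day 24 against 7 and 18 at day 20, and by 0.09 without day 24. Of the effectors Smad3 had 1771 and 2214 at day 20 and 3285 and 3328 at day 24, against 704 and 683 at day 12 and 1179 and 1318 at day 16 (difference 1.46), while Smad2 stayed under the fold threshold (0.91). Skil, a SMAD corepressor, rose by 1.26. Lefty2 was not called (0.28) and followed the days like Lefty1, with a value without day 16 of -2.14. Pcsk6, a protease gene whose product cleaves the NODAL precursor, fell by 1.41. Skil was not called without day 16 (0.89), nor Pcsk6 without day 24 (-0.95), when no gene of the list was lower; without day 16, 2 were.

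Genes of the primitive streak and endoderm were mostly at low values. Among all genes tested 11.2% were higher after Dox and 9.33% lower. Of 9 streak and mesendoderm genes 5 were higher and none was lower, with 3 higher without any 1 of 5 libraries (either of day 12, EFD16 replicate 1, EFD20 replicate 2 or EFD24 replicate 2) and 2 higher without day 16 or day 24, with the days pooled or with a pseudocount of 8. No streak gene reached a mean of at least 50 over the libraries fitted, so that filter left 0 of them to test. Without EFD12, EFD16 or EFD24 replicate 2, 1 streak gene was lower. Lhx1, an organizer transcription factor, had 6 and 9 at day 20 and 159 and 241 at day 24, against 0 and 0 at day 12 and 0 and 0 at day 16. Cer1, a secreted NODAL inhibitor, had 94 and 100 at day 20 and 177 and 365 at day 24, against 0 and 0 at day 12 and 35 and 19 at day 16 (difference 4.42, limma adjusted p = 1.7e-05). Of 12 endoderm genes 5 were higher and 2 lower, and 1 was higher without day 24 or among genes with a mean of at least 50, and 2 with the days pooled. Gata6, an endoderm transcription factor, had 57 and 87 at day 20 and 63 and 96 at day 24, against 17 and 16 at day 12 and 32 and 35 at day 16 (difference 1.57), and Foxa1, a pioneer factor, rose by 1.96 and was not called without day 24 (0.72). Lama1, a laminin chain of basement membranes, fell by 2.88, with its lowest values, 24 and 23, at day 20.

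Of 25 neural stem cell markers 13 were higher after Dox and none was lower (list median 1.16), and 13 were higher at day 24 than at day 20. The shares among all genes tested were 11.2% higher after Dox and 5.33% higher at day 24 than at day 20. Gli3, a transcription factor of hedgehog signalling, had 738 and 1241 at day 20 and 2080 and 1456 at day 24, against 156 and 151 at day 12 and 155 and 156 at day 16 (difference 3.05, SE 0.22, limma adjusted p = 4.1e-08). It was higher at both days after Dox. Sox3, a close relative of Sox2, had 12 and 21 at day 20 and 476 and 92 at day 24, against 2 and 3 at day 12 and 0 and 3 at day 16 (difference 4.04, limma adjusted p = 1.2e-06). Pou3f2, which encodes the neural factor BRN2, had 52 and 69 at day 20 and 699 and 193 at day 24, against 2 and 2 at day 12 and 2 and 2 at day 16 (difference 5.24). Sox1, an early neuroectoderm factor, had 7 and 19 at day 20 and 291 and 91 at day 24, against 4 and 4 at day 12 and 7 and 11 at day 16. At day 20 it lay near the level on Dox and at day 24 above it, and primary NSCs had 917 and 1059. The Sox1 difference was 2.56 and, without day 24, 0.77 and not called. Nes, the intermediate filament gene of neural progenitors, was not called (-0.58), nor were Nfib (0.85) and Ptprz1 (-0.03). Without day 24 Nes was called lower (-1.28), the 1 marker of the list that was. Olig2, an oligodendrocyte lineage factor, was chosen after its values were seen: it had 1 and 4 at day 20 and 109 and 10 at day 24, against 12 and 17 at day 12 and 2 and 9 at day 16, and primary NSCs had 17713 and 19623.

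Of 15 neuronal genes 9 were higher and 1 was lower (list median 1.21), against 11.2% and 9.33% of all genes tested. Map2, a microtubule protein gene of dendrites, had 373 and 380 at day 20 and 3440 and 939 at day 24, against 307 and 285 at day 12 and 185 and 205 at day 16 (difference 1.77, limma adjusted p = 0.00027). Elavl3, a neuronal RNA-binding protein gene, had 6 and 12 at day 20 and 520 and 53 at day 24, against 15 and 19 at day 12 and 3 and 4 at day 16 and overlapped (difference 2.06). Dcx, a gene of migrating neurons, was called (3.12), but 1 of its day 12 libraries was listed at 0 and the call was lost without EFD24 replicate 1 (2.62), day 24 (2.11) or day 12 (1.48). Stmn2, a growth cone gene, fell by 1.90. Map2 and Elavl3 were not called without day 24 (0.65 and 0.06), nor Elavl3 without day 16 (1.16). Without day 24, 5 neural stem cell markers and 0 neuronal genes were called higher, and without day 12, 5 neuronal genes. Without EFD24 replicate 1 the counts were 8 and 4. When the 8 libraries were fitted as 2 groups with the days pooled, they were 6 and 2, and with a mean per day in those 8 alone 10 and 4.

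Of 15 Notch pathway genes, which control the balance of progenitors and neurons, 5 were higher after Dox and 2 lower. Over all genes tested 11.2% were higher and 9.33% lower. With the days pooled 3 Notch genes were higher. Among the receptors Notch3 had 2567 and 2686 at day 20 and 4270 and 3810 at day 24, against 554 and 565 at day 12 and 650 and 907 at day 16 (difference 2.31, limma adjusted p = 9.6e-07). Notch1 and Notch2 rose by 1.92 and 1.94, and Notch4, an endothelial receptor, fell by 1.96. Of the ligands Dll3 rose by 2.44, with 155 and 24 at day 24 against 8 and 7 at day 20, and Jag2 fell by 1.51. Dll3 was not called without day 24 (1.07), when 4 Notch genes were lower, nor Jag2 without day 12 (-1.19), when 1 was. Of 12 forebrain and midbrain genes 7 were higher and 1 was lower, and 1 was higher without day 24, 2 with the days pooled, 3 among genes with a mean of at least 50 and 4 with the 8 libraries fitted alone. En2, a midbrain factor, had 3 and 10 at day 20 and 88 and 43 at day 24, against 1 and 3 at day 12 and 0 and 1 at day 16 (difference 2.85, not called at 1.33 without day 24), and Dlx2, a forebrain homeobox gene, fell by 1.56. Of 34 Hox genes 4 were higher and 1 was lower, close to 11.2% higher and under 9.33% lower among all genes tested. Without day 16, 8 Hox genes were higher. Hoxb3 had 157 and 214 at day 20 and 728 and 389 at day 24, against 18 and 32 at day 12 and 26 and 49 at day 16.

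The consecutive days show when each group changed. Between day 16 and day 12, both on Dox, 2106 genes were called (10.3%). Between day 20 and day 16, across the removal of Dox, 2340 were called (11.4%), and between day 24 and day 20, both after Dox, 2022 (9.88%). The last count was 1114 without EFD20 replicate 1, 1073 without EFD24 replicate 1, and 234 when the fit held the 4 libraries of these days alone. These steps share libraries with each other and with the comparison after against on Dox.

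Cell cycle genes were lower for 19 of 20 at day 16 relative to day 12 (5.02% of all genes) and higher for 12 at day 24 relative to day 20 (5.33% of all genes). Top2a, a topoisomerase of dividing cells, had 6727 and 5430 at day 12, 1352 and 1559 at day 16, 1771 and 2642 at day 20 and 13758 and 9066 at day 24. Its difference after against on Dox was 0.73 and not called, and E2f1, an S phase transcription factor (1.56), was the 1 gene of the list that was. Without day 12, 9 cell cycle genes were higher, without day 20, 7 were, and without day 16, 10 were lower and E2f1 was not called (0.89). Cholesterol synthesis genes were lower for 10 of 15 at day 16 relative to day 12, and Idi1, an isomerase of that pathway, had 7166 and 9069 at day 12, 2820 and 3021 at day 16, 3250 and 3305 at day 20 and 3166 and 4074 at day 24. Naive and general pluripotency genes were lower for 12 of 25 at day 16, higher for 10 at day 20 (6.2% of all genes) and lower for 4 at day 24 (4.55% of all genes), each relative to the sample day before. Keratinocyte genes were lower for 9 of 12 at day 20 (5.24% of all genes) and for 6 at day 24. Fibroblast genes were higher for 10 of 29 at day 16 (5.27% of all genes), 9 at day 20 and 0 at day 24. Neural stem cell markers were higher for 1, 6 and 13 of 25 at these steps in order.

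**Figure D3:**
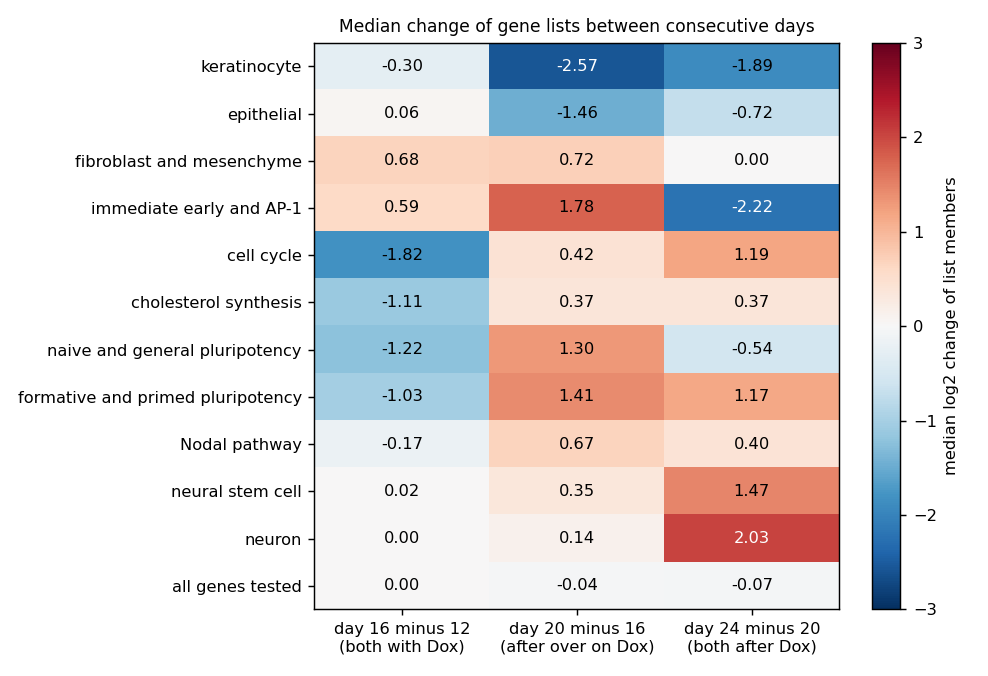
Median log2 difference of the tested members of 11 gene lists, and of all genes tested, between consecutive days in NSC medium (colour scale from -3 to 3). Cell cycle genes have -1.82 at the first step, keratinocyte genes -2.57 at the middle step, and neuronal genes 2.03 at the last, where immediate early genes have -2.22.

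Immediate early genes, which respond quickly to growth factors and stress, were high at day 20 and low at day 24. Of 9 genes 7 were higher at day 20 than at day 16 and 7 lower at day 24 than at day 20. The shares of all genes at these steps were 6.2% higher and 4.55% lower. Fos, which encodes a subunit of AP-1, had 486 and 516 at day 12, 3648 and 3713 at day 16, 9605 and 10024 at day 20 and 498 and 591 at day 24. Fosb, another AP-1 subunit gene, had 148 and 124 at day 12, 2159 and 1908 at day 16, 8617 and 7161 at day 20 and 19 and 23 at day 24, a difference of -8.42 between day 24 and day 20. Averaged over the days after Dox neither was called (0.76 and -0.32). Their signs depended on the day: Fos was -1.32 without day 20, and Fosb was 3.89 without day 24. Egr2 and Egr3, zinc finger genes of the same class, were the members not called lower at day 24 (0.06 and 0.17). Egr3 had 709 and 775 at day 20 and 824 and 839 at day 24, against 54 and 37 at day 12 and 65 and 72 at day 16 (difference 3.78, limma adjusted p = 9.5e-09). In LIF/2i Fosb had 6727 and 7352 at day 20 and 1 and 4 at day 24, against 17 and 27 at day 12 and 514 and 847 at day 16, the same order of days. Contractile genes and targets of YAP and SRF were lower for 7 of 12 at day 24 than at day 20 (4.55% of all genes). Cyr61, a matricellular YAP target, had 21964 and 20420 at day 20 and 2367 and 4205 at day 24, against 2179 and 2159 at day 12 and 5742 and 6531 at day 16. It was called higher after Dox (1.17), but the call was lost without day 20 (-0.21), day 12 (0.42) or EFD24 replicate 2 (0.96). Harvest times within a day are not given in the sources used here.

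Of 14 ERK feedback genes, induced by growth factor signalling, 5 were higher after Dox and 1 was lower. Over all genes tested 11.2% were higher and 9.33% lower. Without day 12 or day 24, 3 ERK feedback genes were higher. Spry1, an inhibitor of receptor tyrosine kinase signalling, had 1799 and 2354 at day 20 and 2567 and 1928 at day 24, against 205 and 156 at day 12 and 661 and 792 at day 16 (difference 2.56, limma adjusted p = 1.5e-06). Egr1 rose by 2.17 and Spry2 by 1.58. The gene that fell was Fosl1 (-1.58), a call lost in 5 of 8 fits without 1 library, down to -0.76 without EFD24 replicate 1. Of 10 STAT3 targets and cytokine receptors 4 were higher and none was lower, among them the receptor genes Lifr (1.95), Osmr (1.55) and Il6st (1.22). Without day 12, 2 were higher and 4 lower, and neither Osmr (0.61) nor Il6st (0.59) was called. Interferon response genes were called in neither direction (0 of 16 in limma, with 2 at an unadjusted p below 0.05), although 1 was called lower without EFD12 replicate 1, EFD16 replicate 2, EFD20 replicate 2 or day 16, and 3 without day 20. In the step from day 20, 6 of them were lower at day 24 than at day 20 (4.55% of all genes). Slc2a3, the glucose transporter gene of the neuronal isoform, had 1879 and 2978 at day 20 and 10289 and 10024 at day 24, against 1502 and 1403 at day 12 and 1154 and 1483 at day 16 and was the 1 of 15 glycolysis genes called higher, a call lost without day 24 (0.78).

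Of 12 macrophage and blood genes 1 was higher (Lyz2, a call kept only without EFD12 replicate 2 or EFD16 replicate 1 when single libraries were left out) and 2 were lower. Adgre1 and Tyrobp were listed at 0 in all 8 libraries, and the summed level ran from 133 to 338 after Dox and from 180 to 987 on Dox. Cd68, a lysosomal protein gene of that list, had 74 and 48 at day 20 and 18 and 24 at day 24, against 84 and 95 at day 12 and 807 and 786 at day 16, with its peak at day 16. Germline and two-cell-like genes were higher for 6 of 12 and lower for none, and 4 of those 6 had replicates split between near 0 and well above it in some group. Without day 16, 3 of the germline genes were higher. Astrocyte and oligodendrocyte genes were higher for 3 of 10, canonical Wnt targets for 3 of 12, BMP and Id genes for 2 of 18, neural crest genes for 2 of 9, skeletal muscle genes for 2 of 5 and p53 targets for 1 of 14. In the same order 0, 1, 1, 0, 1 and 2 were lower. Over all genes tested 11.2% were higher and 9.33% lower. The counts of higher genes in the BMP and p53 lists lay near or under the first share. The Wnt count of higher genes was 0 without EFD24 replicate 1 and 1 without EFD12 replicate 1 or EFD20 replicate 2. The BMP count was 1 without EFD12 replicate 1, EFD16 replicate 2, EFD20 replicate 1 or 2, or EFD24 replicate 1, and the p53 count was 0 without EFD20 replicate 2 and 2 without EFD24 replicate 1. Without EFD24 replicate 1, 2 neural crest genes were called lower. Without day 24, no Wnt, neural crest or skeletal muscle gene was called higher and 1 astrocyte and oligodendrocyte gene was. With the days pooled no neural crest gene was higher, and 1 each of the Wnt, BMP, skeletal muscle and astrocyte and oligodendrocyte lists was. Pdgfra, which oligodendrocyte precursors share with fibroblasts, had 3139 and 3329 at day 20 and 4104 and 3595 at day 24, against 400 and 397 at day 12 and 2081 and 2328 at day 16, and was called higher (1.91) except without day 12 (0.68). Gdf15, a stress-induced cytokine gene, fell by 3.38.

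The replicates of day 24 stood further apart than those of the other days. At day 24, 12.0% of the genes tested differed at least 2-fold between replicates, against 7.75% at day 12, 7.01% at day 16 and 8.05% at day 20. Gene groups differed in the direction of the gap. Of 25 neural stem cell markers 14 were at least 2-fold higher in replicate 1 than in replicate 2 of day 24 and none was lower, and of 15 neuronal genes 8 were higher and none lower. Of 25 naive and general pluripotency genes 10 were at least 2-fold lower in replicate 1 and none was higher, and of 19 Nodal pathway genes 8 were lower and none higher. Pou3f2 had 699 in replicate 1 and 193 in replicate 2, Elavl3 had 520 and 53, Tdgf1 had 398 and 2200, and Lefty1 had 222 and 1120. The median gap between replicate 1 and replicate 2 was 1.24 for neural stem cell markers and -0.84 for naive and general pluripotency genes at day 24, on the log2 scale. At day 20 these medians were -0.10 and -0.43. A gap between 2 single libraries has no test.

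**Figure D4:**
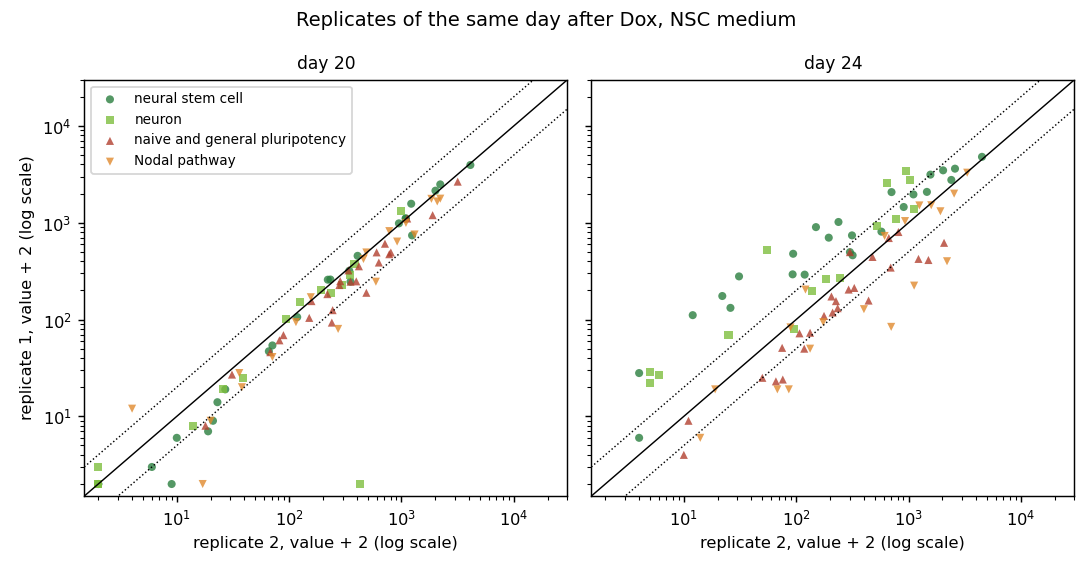
Value + 2 in replicate 1 against replicate 2 (both log scales) at day 20 and day 24 for members of 4 gene lists, with equality as the solid line and 2-fold differences as dotted lines. At day 24 most neural stem cell and neuronal genes lie above the solid line and most pluripotency and Nodal genes below it; at day 20 most points lie between the dotted lines.

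The change after Dox was set against that at the same days in LIF/2i by testing the difference between the 2 changes. It was called at 2838 genes (13.9%), of which 1506 (7.36%) were more positive and 1332 (6.51%) more negative in NSC medium. Neural stem cell markers were more positive in NSC medium for 8 of 25, and Notch genes for 8 of 15. Sox1 changed by 2.56 in NSC medium and by -1.84 in LIF/2i, a difference of 4.41. Lin28a changed by 3.53 in NSC medium and by -1.01 in LIF/2i, a difference of 4.54. Naive and general pluripotency genes were more negative in NSC medium for 10 of 25 and more positive for 1. Nanog, a core pluripotency factor chosen after its values were seen, had 492 and 599 at day 20 and 342 and 692 at day 24, against 856 and 651 at day 12 and 296 and 345 at day 16 in NSC medium. In LIF/2i it had 10290 and 8832 at day 20 and 14544 and 14544 at day 24, against 3079 and 2836 at day 12 and 5178 and 4445 at day 16. The Nanog groups overlapped in NSC medium and did not in LIF/2i, and the changes of 0.07 and 1.64 differed by -1.57. Fibroblast genes were more positive in NSC medium for 10 of 29 and more negative for 2. Thbs4 in LIF/2i had 3 and 0 at day 20 and 1 and 2 at day 24, against 12 and 12 at day 12 and 6 and 5 at day 16, and its changes differed by 7.24. Keratinocyte genes had median changes of -3.24 in NSC medium and -2.13 in LIF/2i, and 4 of 12 were more negative in NSC medium. The difference between media was not called for Otx2 (0.98) or Lefty1 (-0.04).

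**Figure D5:**
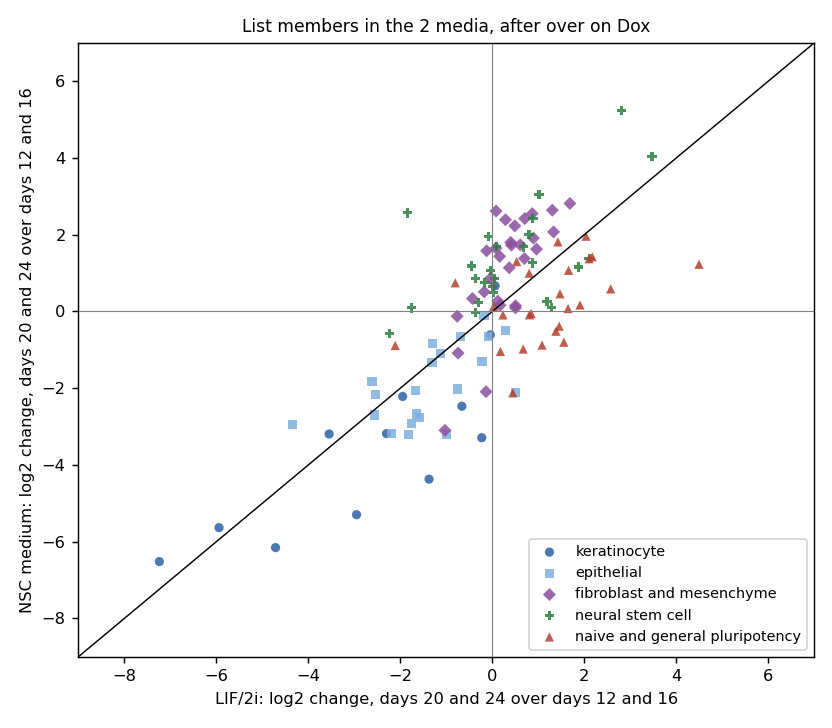
Log2 change after over on Dox in NSC medium (vertical) against that in LIF/2i (horizontal) for members of 5 gene lists, with the line of equality. Most keratinocyte and epithelial genes lie below 0 in both media, most fibroblast genes above the line of equality and most naive and general pluripotency genes below it.

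Some large changes came from genes whose values jump between 0 and much higher numbers. At 2010 genes, in at least 1 of the 13 groups of the table, a library was at 3 or less while its replicate was at 50 or more, a definition made after the values were seen. Of these genes 94.2% had a transcript GC content below the median of the table. They were 305 of the 4200 called genes but 9 of the 12 largest rises by the naming rule, among them Zfy1, Fstl5 and Gabrg1. Of the list genes described above, Col3a1, Tdgf1, Pou3f2, Dcx and Lyz2 were among them. Gabrg1 had 412 and 325 at day 20 and 656 and 441 at day 24, against 0 and 0 at day 12 and 0 and 0 at day 16, and in LIF/2i it had 0 and 368 at day 20 and 240 and 0 at day 24, against 408 and 0 at day 12 and 367 and 0 at day 16. Without these genes 3895 were called, 2080 higher and 1815 lower. Efhc2, the largest rise among the rest, had 443 and 594 at day 20 and 546 and 572 at day 24, against 0 and 0 at day 12 and 0 and 0 at day 16, and was at 326 or more in each library of LIF/2i. The share of genes called also ran with GC content, from 5.72% in the tenth of lowest content to 36.7% in the tenth of highest. The part of GC content in the differences was not tested.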

How the data were processed

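RNA-seq libraries were made from Trizol-extracted RNA, enriched for mRNA on oligo(dT) beads and copied with random hexamers, per the labels' protocols. The submitters' processing notes name Bowtie2 2.0, RSEM and mm10; roles and order are not given in the sources used here. The deposited values are the authors' normalized tag counts, whole numbers treated here as a score: every column has the same highest value (87546) and a median of 194 or 195, so read depth is unknown and no count model was used. Of 29 columns, 26 matched labelled samples in 13 groups and were fitted together; 3 matched no labelled sample and were not used. Tests covered the 20468 of 20558 genes that reached 10 in 2 or more libraries, by limma 3.58.1 in R 4.3.3 on log2(value + 2), 1 mean per group, a variance trend and Benjamini-Hochberg adjustment per comparison. Because 2 is added, differences of low genes are understated. The change in each medium is the mean of days 20 and 24 minus the mean of days 12 and 16. On simulated data with 100 genes changed by 1.5 and 100 by 3 on the log2 scale, this comparison recovered 95% and 93%. It also called 12 unchanged genes. The changed genes had a mean of at least 100 in NSC medium, and the days on 1 side of Dox shared 1 mean. Recovery at lower values, or with changes between such days, was not tested.

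Genes were named by rule: the 12 largest called changes each way without overlap and with a mean of at least 100 on 1 side, the same without replicate-split genes, the delivered factors and Otx2, Lefty1 and Sox17, and in each list up to 4 called each way and up to 3 not called. Some genes that the rule names are not reported here. Comparison, lists and rule were chosen with earlier results of these data known. Promoters came from RefSeq (GRCm38.p6). Alternatives covered the pseudocount, filter, scaling, variance trend, libraries fitted, replicate block, and single libraries and days left out.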

Additional observations from a re-analysis of the deposited data

Results flagged for a closer look

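For part of the 303 named genes, 58 groups of 4 libraries were examined for a library far from the other 3. Of these groups 2 were flagged, while chance gives about 1 in 20. Genes outside that part were not examined, and a lone high library there, such as EFD24 replicate 1 for Elavl3, is not listed. Ina, a neuronal intermediate filament gene, had 1359 in EFD24 replicate 1, against 19 to 197 in the other libraries after Dox. Alox12b had 2 in EFD20 replicate 1 and 0 in the other libraries after Dox.

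The changes after Dox in NSC medium and in LIF/2i differed, by the limma test of the difference itself, at the following genes. Sox17 fell less in NSC medium, with a difference between the changes of 1.24. The change was more positive in NSC medium for Efhc2 (7.48), Thbs4 (7.24), Fmod (6.74), Cilp (6.67), Insm1 (5.54) and Col15a1 (5.25). It was more negative in NSC medium for Chit1 (-7.2), Khdc1c (-7.11), Tie1 (-6.75), Rbp7 (-6.23), Nos3 (-6.1) and Atp6v0d2 (-6.05). Atp6v0d2 did not change in NSC medium, so its difference came from a rise in LIF/2i. In NSC medium Insm1 changed by 1.66, Chit1 by -3.95, Tie1 by -4.08 and Rbp7 by -4.05. A change of opposite sign in LIF/2i made up the rest of these 4 differences. The Insm1 call in NSC medium was lost without day 24 (-0.41). Tie1 and Nos3 are endothelial genes, and Thbs4, Fmod, Cilp and Col15a1 encode matrix proteins.

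Larger differences still stood at genes that had, in some group, a library at 3 or less beside a replicate at 50 or more. They were positive for Erbb4 (8.53), Gabrg1 (7.99), Npy6r (7.8) and Vmn2r125 (7.58). They were negative for Olfr143 (-8.5), Slco1b2 (-8.02), Tmprss11d (-7.81), Olfr77 (-7.76), Anxa10 (-7.5) and Vmn2r72 (-7.42). In NSC medium itself Slco1b2 changed by -0.02 and Vmn2r72 did not change.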

How the results depend on the processing

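The 4200 genes called after against on Dox became 3798 with a pseudocount of 8, 3121 with a mean of at least 50, 4041 with the 8 libraries fitted alone, 3090 with the days pooled, and between 3169 (without day 24) and 5278 (without day 20) with 1 day left out. Rescaling by a trimmed mean gave 2460 higher and 1739 lower. The step from day 20 to day 24 was the least stable: 2022 genes were called, 234 with its 4 libraries fitted alone (5647 at an unadjusted p below 0.05) and 0 with the replicate block added to that fit (4182 at an unadjusted p below 0.05, limma). With single libraries left out the counts ran from 3765 to 4375 (after against on Dox), 1845 to 1923 (day 16 against 12), 1671 to 2395 (day 20 against 16), 1073 to 2635 (day 24 against 20) and 2399 to 3354 (difference between media). Same-numbered replicates shared little deviation across the days, with correlations between -0.069 and 0.087 over 14366 genes. That cannot show whether the samples were paired. The replicate block gave 3998 calls after against on Dox with 8 libraries fitted and 4186 with all. Of 6595 values of 303 named genes under 22 alternatives, 5959 kept their side of the threshold with no opposite sign, 332 lost the call and 134 gained one. A further 146 had the opposite sign but were called neither way, 51 of them without 1 library and 89 without 1 day. Where the gene was called in at least 1 of the fits compared, 19 values had the opposite sign and 5 were 0, all 24 without 1 day; the cause was not tested. Without day 12 Crisp3, Cphx2 and Ambn had 0 and Socs3 -1.49. Without day 16 Lefty1 had -1.11, Vmn1r68 and Pgr15l 0, Mrc1 -0.013, Fosb 1.63, Slpi 1.04, Ceacam13 -2.35, Lefty2 -2.14 and Lgr5 -0.031. Without day 20 Cyr61 had -0.21, Ctgf -0.17, Hand1 -0.16, Junb -1.01 and Fos -1.32. Without day 24 Fosb had 3.89, Pou3f4 -0.50, Miat -2.50, Nr4a1 1.95, Insm1 -0.41 and Gata4 -0.057. Read depth is unknown, so no limit of detection can be given.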
